A study of Mus musculus with 29 samples.

Results

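The Cyp2c cytochromes P450 described here are 9 genes of the mouse Cyp2c family, Cyp2c29, Cyp2c37, Cyp2c38, Cyp2c39, Cyp2c44, Cyp2c50, Cyp2c54, Cyp2c55 and Cyp2c70, measured in 29 livers. Every non-control spot annotated with one of these names was taken, which gave 9 of 31791 named genes and 13 of 39429 probes on the array, and all 13 were among the 23932 probes bright enough to be kept. The genes were chosen by the lower ratios of the family in livers of mice given rosiglitazone alone than in livers of mice on the diet alone, so the values of that comparison are a description and are given without a test. The label of lowered cytochromes held for 9 of the 13 probes, which cover 6 genes, whereas Cyp2c44, Cyp2c55, Cyp2c70 and 1 of the 2 Cyp2c38 probes overlapped with the control livers or lay above them.

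The mice were C57BL/6N males, 3 months old when the diets began, and all of them, controls included, received a corn-oil-based high-fat feed (cHF), for 7 weeks. The groups were cHF+PC+R, with both omega-3 phospholipids and a low dose of rosiglitazone (8 livers), cHF+PC, with the phospholipids alone (8 livers), cHF+R, with rosiglitazone alone (6 livers), and cHF, with neither (7 livers). EPA and DHA, the long-chain omega-3 acids of fish oil, were supplied in the phospholipids, which made up about 7% of the dietary lipids. Rosiglitazone is an antidiabetic drug that activates PPAR-gamma. Each liver came from a separate mouse and was hybridised in Cy5 against a Cy3 pool of all samples, so each value below is a log2 ratio of a liver to that pool.

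Cyp2c enzymes are haem proteins of the endoplasmic reticulum that take electrons from the P450 oxidoreductase Por and insert oxygen into drugs, steroids and polyunsaturated fatty acids. In mouse liver, several of them turn arachidonic acid into epoxides, and the omega-3 acids EPA and DHA are substrates of the same reaction. Their transcription in hepatocytes depends on liver factors such as HNF4-alpha and is raised by the drug-sensing receptors CAR (Nr1i3) and PXR (Nr1i2).

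The genes are close relatives, and some of their probes cover the same stretch of the message. In the mm9 build used by the files, all 13 probes lie on chromosome 19, most of them in the family cluster: the Cyp2c55 probe at chr19:39116674-39116733, Cyp2c29 at chr19:39403642-39403701, Cyp2c39 at chr19:39642568-39642627, Cyp2c37 probe 1 at chr19:40086467-40086526, Cyp2c50 at chr19:40188154-40188213 and Cyp2c70 at chr19:40227969-40228028. The Cyp2c38 probes lie at chr19:39465415-39465474 (probe 1) and chr19:39464438-39464497 (probe 2), on the other strand from Cyp2c29. The Cyp2c44 probe, whose gene RefSeq now calls Cyp2c23, lies apart from the cluster at chr19:44079535-44079594. The 3 Cyp2c54 probes lie at chr19:40112528-40112587 (probe 1), chr19:40144659-40144718 (probe 2) and chr19:40122119-40144700 (probe 3), the last being a 60-base probe that spans an intron. A few probes are printed because they show how near the relatives are and which probes overlap. The Cyp2c29 probe and Cyp2c37 probe 2 run over the same stretch of the 2 messages for 31 bases, of which 27 match, and the capitals in those lines mark the 4 that differ. Cyp2c54 probes 2 and 3 share 42 bases, in capitals, and are not independent readings. The Cyp2c39 probe, in lower case throughout, shared no run of 20 bases with any other Cyp2c probe. The same held for every member probe but Cyp2c54 probes 2 and 3. Such a lack of shared runs does not show that a probe reads only its own message.

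Cyp2c29: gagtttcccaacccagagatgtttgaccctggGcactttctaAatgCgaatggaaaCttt
Cyp2c37 probe 2: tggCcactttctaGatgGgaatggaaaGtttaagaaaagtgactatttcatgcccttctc
Cyp2c54 probe 2: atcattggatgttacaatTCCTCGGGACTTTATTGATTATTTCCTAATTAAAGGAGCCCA
Cyp2c54 probe 3: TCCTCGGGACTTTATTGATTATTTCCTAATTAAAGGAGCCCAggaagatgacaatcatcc
Cyp2c39: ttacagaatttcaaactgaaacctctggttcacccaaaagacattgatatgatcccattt

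Cyp2c37 probe 1 and the Cyp2c50 probe also overlapped, by 40 bases with 35 matching, and the share of each signal that came from a relative's message was not tested. Fewer cells of a type and less message per cell cannot be told apart in these samples.

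On the arrays, 55.0% to 62.5% of the 43020 non-control spots were well above background in 28 livers, and 80.8% in the remaining one, cHF replicate 4, which therefore stands apart. Any 2 arrays correlated by a median of 0.36 within groups and 0.17 between groups, with a lowest value of -0.31. The direction of the ratios was kept because the labels state the dyes and the pool held every group. The drug's known target Cidec, a fat-droplet protein, had log2 ratios of 0.08 to 1.90 in cHF+R livers and of -2.92 to -0.06 in cHF livers, with no overlap, and was 2.47 ± 0.49 higher (log2 ± SE; adjusted p = 0.00280, limma). Cidec ran, in cHF+PC+R livers, from -2.76 to 1.44, against -3.43 to -1.86 in cHF+PC livers, a difference of 2.06 ± 0.44 that missed the threshold (adjusted p = 0.0536, limma). The further known targets Cfd and Fabp4 did not pass in this comparison either. They differed by 2.62 ± 0.77 and 0.36 ± 0.28 (adjusted p = 0.245 and 0.771, limma).

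The members' levels were lowest in livers given rosiglitazone without phospholipids. Of the 13 probes, 9 were below every cHF liver in every cHF+R liver, where 0.811% of all probes were separated in this direction. These 9 are the probes of Cyp2c29, Cyp2c37 (both), Cyp2c39, Cyp2c50 and Cyp2c54 (all 3) and Cyp2c38 probe 1, and below they are called the lowered probes. Because they are the readings that chose the genes, this is a description. The 9 differences ran from -1.41 ± 0.20 (log2 ± SE) for Cyp2c54 probe 1, a 2.66-fold lower level, to -0.84 ± 0.17 for Cyp2c29, a 1.79-fold lower level. The probes next to them were Cyp2c44 at -0.28 ± 0.20 and Cyp2c70 at -0.15 ± 0.27. Over all 13 probes the median difference was -0.97, beside 0.01 over all kept probes. In each of the 5 slides that held both groups, the cHF+R liver was lower than the cHF liver by each of the 9 probes.

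Cyp2c54, which with Cyp2c29, Cyp2c38, Cyp2c39 and Cyp2c50 belongs to the arachidonic acid epoxygenases of mouse liver, showed the widest difference. By probe 1 its lowest, median and highest log2 ratios were -0.57, 0.26 and 0.52 in cHF+PC+R livers, -0.42, 0.32 and 1.00 in cHF+PC livers, -2.12, -1.54 and -0.94 in cHF+R livers and -0.43, -0.04 and 0.26 in cHF livers. The 6 cHF+R livers lay below all 23 others, and the other 3 groups overlapped.

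Cyp2c50 had lowest, median and highest log2 ratios of -0.31, 0.28 and 0.58 in cHF+PC+R livers, -0.24, 0.39 and 0.92 in cHF+PC livers, -1.57, -1.29 and -0.70 in cHF+R livers and -0.26, 0.07 and 0.18 in cHF livers. Cyp2c37, known in the mouse for hydroxylating arachidonic acid, had by probe 1 ratios of -0.35, 0.16 and 0.46 in cHF+PC+R livers, -0.33, 0.24 and 0.79 in cHF+PC livers, -1.72, -1.28 and -0.75 in cHF+R livers and -0.30, -0.10 and 0.14 in cHF livers. Both genes were low in all 6 cHF+R livers, with a gap to the lowest liver of any other group.

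Cyp2c38 probe 1 had ratios of -0.69, 0.13 and 0.94 in cHF+PC+R livers, -0.39, 0.33 and 0.96 in cHF+PC livers, -1.80, -1.47 and -1.26 in cHF+R livers and -0.60, -0.25 and -0.04 in cHF livers. Cyp2c39, which in the mouse also oxidises retinoic acid, had ratios of -0.32, 0.23 and 0.66 in cHF+PC+R livers, -0.21, 0.36 and 0.90 in cHF+PC livers, -1.41, -0.98 and -0.55 in cHF+R livers and -0.24, 0.01 and 0.17 in cHF livers. Cyp2c29, an enzyme long used as a readout of CAR activation, had ratios of -0.43, 0.26 and 0.88 in cHF+PC+R livers, -0.13, 0.30 and 0.90 in cHF+PC livers, -1.26, -0.89 and -0.58 in cHF+R livers and -0.36, -0.06 and 0.16 in cHF livers. By these 3 probes the cHF+R livers stood alone at the bottom. The phospholipid groups reached above the highest cHF liver, and the cHF+PC+R livers also reached below the lowest cHF liver.

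The further probes of Cyp2c37 and Cyp2c54 gave the same separation. Cyp2c37 probe 2 had ratios of -0.37, 0.19 and 0.63 in cHF+PC+R livers, -0.23, 0.38 and 0.92 in cHF+PC livers, -1.60, -0.97 and -0.60 in cHF+R livers and -0.26, -0.02 and 0.19 in cHF livers. Cyp2c54 probe 2, which lacked a value in 1 cHF+PC liver, had ratios of -0.42, 0.18 and 0.57 in cHF+PC+R livers, -0.23, 0.25 and 0.86 in cHF+PC livers, -1.45, -0.87 and -0.59 in cHF+R livers and -0.31, -0.06 and 0.28 in cHF livers. Cyp2c54 probe 3 had ratios of -0.55, 0.27 and 0.60 in cHF+PC+R livers, -0.31, 0.40 and 0.99 in cHF+PC livers, -1.88, -1.15 and -0.74 in cHF+R livers and -0.36, -0.07 and 0.25 in cHF livers. With cHF replicate 4 left out, the differences of cHF+R from cHF were still between -1.45 and -0.86 for the 9 lowered probes.

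**Figure D1:**
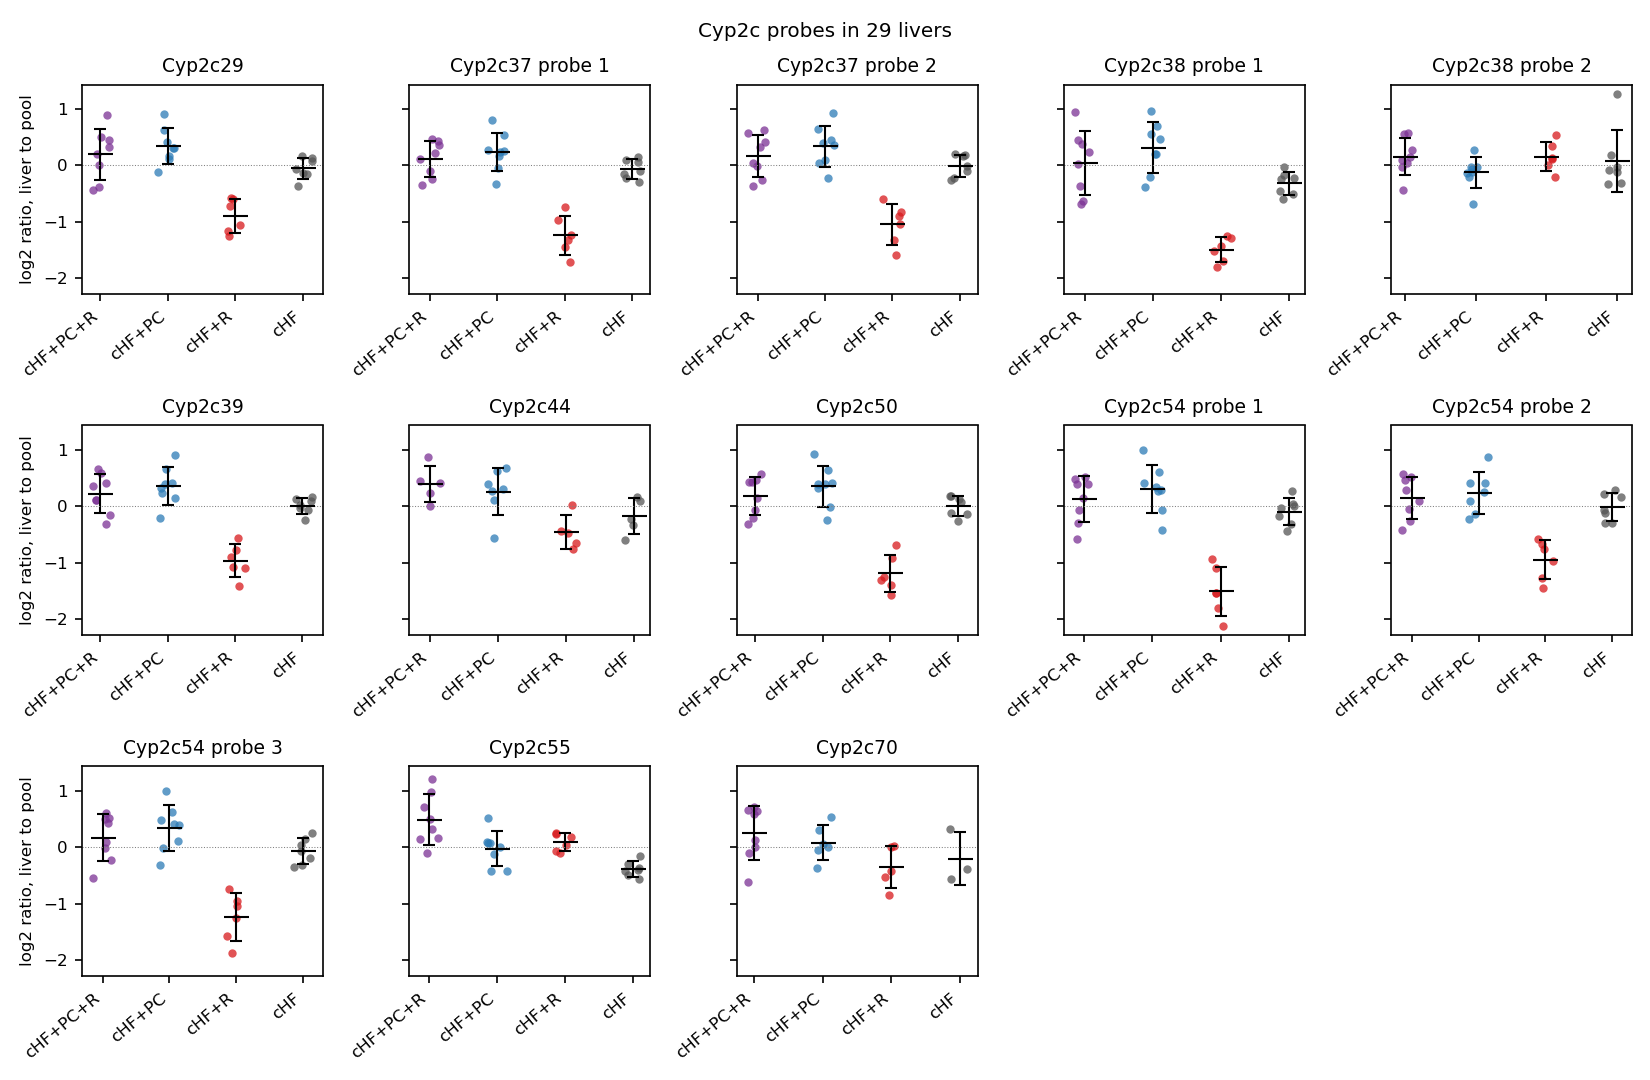
Log2 ratio to the reference pool (vertical axes) of the 13 member probes in each liver, with 1 panel per probe and the groups cHF+PC+R, cHF+PC, cHF+R and cHF from left to right. Points are livers and black marks are the mean ± SD; in the 9 lowered probes every cHF+R point lies below every cHF point, and in the Cyp2c55 panel every cHF+R point lies above every cHF point.

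What rosiglitazone did to these cytochromes when phospholipids were also eaten was read from cHF+PC+R against cHF+PC. This is the comparison of the drug whose group means hold no cHF+R or cHF liver. The spread per probe was estimated over all 29 livers; with only the compared groups in the fit 0 of 13 member probes passed too. No member probe passed the test (0 of 13, where 0.113% of all probes passed in limma, an adjusted p under 0.05 in either direction). Values were negative for 9 probes and positive for 4, with a median of -0.14 beside 0.01 over all kept probes. One member was at an unadjusted p under 0.05, where 8.35% of all probes were. The drug's known targets Cidec, Cfd and Fabp4 did not pass in this comparison either, which limits what the lack of member calls can show.

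The size that this comparison leaves room for is given by the intervals. For Cyp2c54 probe 1 the difference was -0.18 ± 0.18 with a 95% interval of -0.54 to 0.19 (log2; adjusted p = 0.841, limma). Cyp2c50 differed by -0.17 ± 0.15, with an interval of -0.47 to 0.13, and Cyp2c29 by -0.14 ± 0.16, with an interval of -0.46 to 0.18. The most negative value was that of Cyp2c38 probe 1, -0.27 ± 0.19 (interval -0.66 to 0.12, adjusted p = 0.741, limma). Without cHF+PC replicate 7 the value of Cyp2c54 probe 2 turned to 0.02, and with median centring to 0.03, beside -0.09 in the model used here.

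Cyp2c55, which in the mouse is known as one of the strongly inducible targets of CAR and PXR, was the member with the largest positive value. It had log2 ratios of -0.10, 0.41 and 1.21 (lowest, median, highest) in cHF+PC+R livers and of -0.42, 0.04 and 0.51 in cHF+PC livers. The groups overlapped, although the cHF+PC+R liver was the higher one in 8 of 8 slides. The difference of 0.51 ± 0.14 did not pass the threshold over all probes (adjusted p = 0.187, limma).

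**Figure D2:**
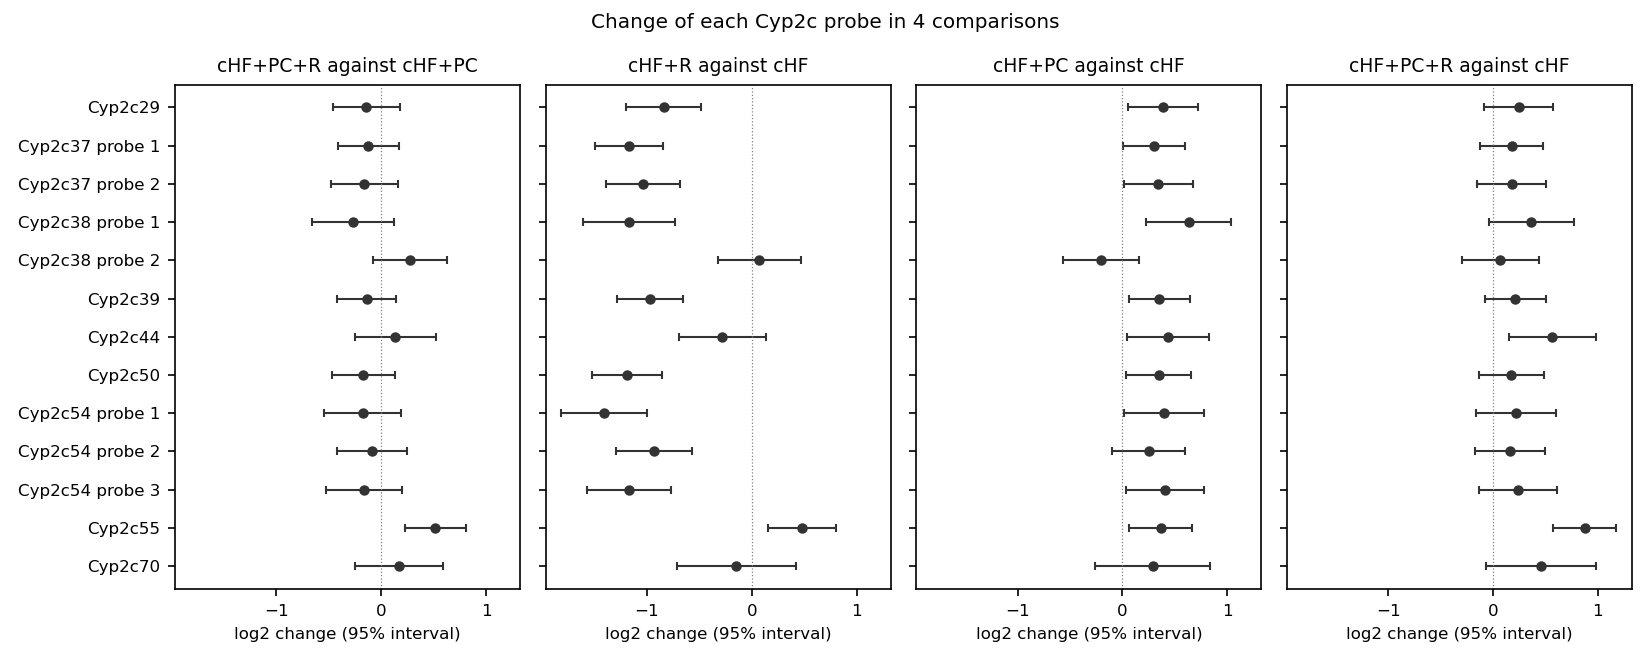
Log2 change of each of the 13 member probes (horizontal axis) with its 95% interval in 4 comparisons, 1 panel each: cHF+PC+R against cHF+PC, cHF+R against cHF, cHF+PC against cHF and cHF+PC+R against cHF. In the first panel the 9 lowered probes lie between -0.27 and -0.09, in the second between -1.41 and -0.84.

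The phospholipids alone are read from cHF+PC against cHF, and both supplements together from cHF+PC+R against cHF. Both comparisons share the 7 cHF livers with the one that chose the genes, and they share these livers with each other. In cHF+PC against cHF no member probe passed the test (0 of 13, background 3.84% in limma, either direction), although 12 of 13 values were positive with a median of 0.35. At an unadjusted p under 0.05 there were 10 members, all higher, where 9.57% of all probes were higher at that level. Cyp2c38 probe 1 came nearest with 0.63 ± 0.20 (adjusted p = 0.0681, limma), and the cHF+PC liver was higher in 6 of 7 slides. It passed the threshold without cHF+PC replicate 2 or cHF+PC+R replicate 7, and Cyp2c44 passed without cHF+PC replicate 1. Cyp2c44 had 0.43 ± 0.19, Cyp2c54 probe 3 0.41 ± 0.18 and Cyp2c29 0.39 ± 0.16. The one negative value was that of Cyp2c38 probe 2, at -0.20 ± 0.18, and -0.01 without cHF replicate 4.

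Of the 13 member probes 1 rose in cHF+PC+R against cHF, that of Cyp2c55, where 4.55% of all probes rose and 9.03% changed in either direction (limma). Its ratios were -0.10, 0.41 and 1.21 in cHF+PC+R livers and -0.57, -0.41 and -0.15 in cHF livers, with no overlap, which is a separation that 1.07% of all probes showed in this direction. The change was 0.88 ± 0.15, or 1.84-fold (adjusted p = 0.000291, limma), higher in 7 of 7 slides. All 13 values were positive, with a median of 0.22, and 2 were at an unadjusted p under 0.05, where 13.5% of all probes were higher at that level. The other of these was Cyp2c44 with 0.57 ± 0.20 (adjusted p = 0.0822, limma), which passed without cHF+PC replicate 1 or cHF+PC+R replicate 6. Of the 9 lowered probes the values were 0.16 to 0.36, none past the threshold, and Cyp2c50 turned to -0.03 when the Cy5 channel alone was used.

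Set against cHF+R livers, the cHF+PC+R livers were higher by 9 probes with no overlap, where 0.882% of all probes were separated in this direction. These are again the lowered probes, and since the cHF+R livers chose the genes the values are a description. The differences were 1.63 ± 0.19 for Cyp2c54 probe 1 (3.09-fold) and 1.09 ± 0.17 for Cyp2c29 (2.12-fold), and the median over the 13 probes was 1.19. In all 6 slides that held both groups the cHF+PC+R liver was higher by each of the 9 probes. The interaction is the drug's difference with phospholipids minus that without. It subtracts the difference that chose the genes, which favours positive values in the lowered probes, so these too are a description. Values were positive for all 13 probes, from 0.04 for Cyp2c55 to 1.23 ± 0.27 for Cyp2c54 probe 1, with a median of 0.85. Not all of these signs held: with the slide as a block the value of Cyp2c55 turned to -0.07, and with scaling between arrays Cyp2c70 turned to -0.27 and Cyp2c55 to -0.0134. The lowered probes stayed positive, but with wider errors in some settings. With scaling, Cyp2c54 probe 1 had 1.39 ± 0.83 and Cyp2c29 0.67 ± 0.63. With median centring, the same probes had 0.99 ± 0.46 and 0.46 ± 0.42. Over the whole array 0 of 23932 probes (0%) passed an adjusted p under 0.05 for the interaction in limma, and 6.66% had an unadjusted p under 0.05.

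The order of the group means was the same for the 9 lowered probes, cHF+R at the bottom, then cHF, then cHF+PC+R, then cHF+PC. Only the step between cHF+R and cHF was wider than the spread of the livers, since the other 3 groups overlapped in every one of the 9 probes. Averaged over the lowered probes, the lowest, median and highest liver values were -0.45, 0.18 and 0.64 in cHF+PC+R, -0.28, 0.31 and 0.92 in cHF+PC, -1.64, -1.14 and -0.75 in cHF+R and -0.34, -0.04 and 0.11 in cHF. Among the livers of a group, the SD of Cyp2c50 was 0.34 in cHF+PC+R (n = 8), 0.36 in cHF+PC (n = 8), 0.33 in cHF+R (n = 6) and 0.18 in cHF (n = 7), a difference in spread that was not tested.

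The probes of 1 gene did not all read alike. Cyp2c38 probe 2 had log2 ratios of -0.45, 0.12 and 0.57 in cHF+PC+R livers, -0.70, -0.09 and 0.28 in cHF+PC livers, -0.20, 0.11 and 0.52 in cHF+R livers and -0.34, -0.08 and 1.26 in cHF livers. The groups overlapped throughout, with the 1.26 of cHF replicate 4 far from its group, and cHF+R differed from cHF by 0.07 ± 0.19, or by 0.27 without that liver. Probe 2 was dim, with a mean log2 Cy5 intensity of 7.83, and well above background on 28 of 29 arrays. Like Cyp2c38 probe 1, it shared no run of 20 bases with another Cyp2c probe. The 3 Cyp2c54 probes and the 2 Cyp2c37 probes, by contrast, gave differences between -0.94 and -1.41 and between -1.17 and -1.04 in cHF+R against cHF.

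Cyp2c44, an epoxygenase of mouse liver and kidney, had values on 22 arrays, the rest being marked as spot outliers. It ran in cHF+PC+R livers from 0.00 to 0.86 with a mean of 0.39 ± 0.32 (SD, n = 5), in cHF+PC livers from -0.57 to 0.68 with a mean of 0.26 ± 0.42 (n = 7), in cHF+R livers from -0.75 to 0.03 with a mean of -0.46 ± 0.30 (n = 5) and in cHF livers from -0.59 to 0.17 with a mean of -0.18 ± 0.31 (n = 5). The ranges overlapped, and the difference of cHF+R from cHF, -0.28, turned to 0.09 when the arrays were only centred on their medians. Cyp2c70, which makes the muricholic bile acids of the mouse, also had values on 22 arrays, 3 of them in cHF. Its means were 0.25 ± 0.48 in cHF+PC+R (SD, n = 8), 0.08 ± 0.31 in cHF+PC (n = 6), -0.36 ± 0.37 in cHF+R (n = 5) and -0.21 ± 0.47 in cHF (n = 3), with overlap between all groups. For both genes the order of the means was cHF+R, cHF, cHF+PC, cHF+PC+R.

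Cyp2c55 went the other way from its relatives in livers given the drug alone. Its ratios were -0.09, 0.11 and 0.26 in cHF+R livers, all 6 above the cHF livers, with a difference of 0.48 ± 0.16 and a higher level in 5 of 5 slides. Since cHF+R against cHF chose the genes, this too is a description, beside 1.21% of all probes separated in this direction. The order of its means was cHF, cHF+PC, cHF+R, cHF+PC+R.

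Livers that were high or low in 1 lowered probe were so in the others. After removal of the group means, Pearson's r over 29 livers (28 where Cyp2c54 probe 2 entered) was between 0.60 and 0.99 in the 36 pairs of lowered probes, with a median of 0.94. The highest value, 0.99, was between Cyp2c37 probe 2 and Cyp2c54 probe 3, printed above. They share no run of 20 bases, but binding of either to the other's message was not tested. Pairs of a lowered probe with another member had a median of 0.22 (36 pairs, -0.26 to 0.62, over 21 to 29 livers), and the 2 Cyp2c38 probes had 0.09. These are descriptions: all livers share the reference pool, and each array's normalization acts on all its probes. On the Cyp2c29 probe, which was spotted 10 times, the SD of the spots within an array had a median of 0.03, well under the spread between livers of a group.

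**Figure D3:**
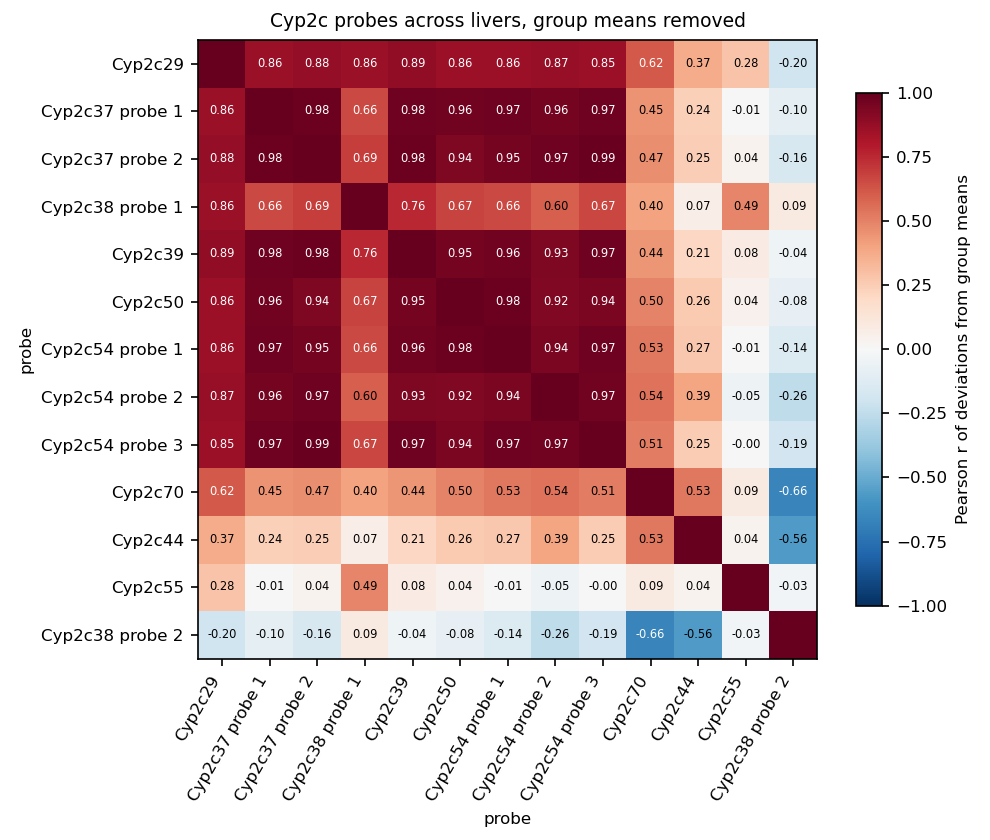
Pearson's r between the 13 member probes (rows and columns) over livers after removal of group means, as a colour scale. The block of the 9 lowered probes holds values of 0.60 to 0.99, while Cyp2c38 probe 2, Cyp2c44, Cyp2c55 and Cyp2c70 stand outside it.

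By the same measure, among 19456 genes outside the members, the 5 most like the mean deviation of the members were Reps2 (r = 0.79), the aldo-keto reductase Akr1c6 (0.76), the glucuronosyltransferase Ugt2a3 (0.75), a transcript listed as ENSMUST00000080361 (0.74) and LOC100047260 (0.74). The 3 least like were Mthfd1l, a mitochondrial enzyme of folate metabolism (-0.73), the fatty acid elongase Elovl5 (-0.73, over 24 livers) and Sh3bp5l (-0.70, over 25 livers). The median over all genes was 0.00.

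The promoters of 7 members in RefSeq's GRCm38.p6 annotation, which is a later build than that of the probes, are shown for the 120 bases before the annotated start, because 5 of these genes moved together and 2 did not. Capitals mark CAAAGTCCA, a core of the HNF4 site, its variant CAAAGTCTA, which was chosen after the promoters were seen, and TATAAA, on either strand. Promoters of Cyp2c54 and Cyp2c44 are not shown. Nor are the bases of Cyp2c39 start 2, at chr19:39510702-39510821, which lies on the other side of the Cyp2c38 promoter from start 1. Which start the Cyp2c39 message came from was not tested.

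Cyp2c29 (chr19:39286965-39287084, + strand): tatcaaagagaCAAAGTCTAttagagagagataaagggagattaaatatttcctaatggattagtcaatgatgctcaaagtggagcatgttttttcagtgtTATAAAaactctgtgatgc
Cyp2c39 start 1 (chr19:39347226-39347345, + strand): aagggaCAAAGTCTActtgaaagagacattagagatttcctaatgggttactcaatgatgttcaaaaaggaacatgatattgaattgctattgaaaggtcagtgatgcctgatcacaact
Cyp2c38 (chr19:39463076-39463195, - strand): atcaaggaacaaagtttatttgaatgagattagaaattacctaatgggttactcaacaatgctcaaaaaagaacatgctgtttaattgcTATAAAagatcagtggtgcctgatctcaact
Cyp2c37 (chr19:39992304-39992423, + strand): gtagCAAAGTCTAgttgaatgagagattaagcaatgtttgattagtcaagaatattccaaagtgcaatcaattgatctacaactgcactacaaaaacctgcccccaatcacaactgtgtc
Cyp2c50 (chr19:40089559-40089678, + strand): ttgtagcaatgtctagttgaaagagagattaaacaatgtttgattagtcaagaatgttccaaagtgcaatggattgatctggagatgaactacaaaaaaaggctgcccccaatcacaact
Cyp2c55 (chr19:39006899-39007018, + strand): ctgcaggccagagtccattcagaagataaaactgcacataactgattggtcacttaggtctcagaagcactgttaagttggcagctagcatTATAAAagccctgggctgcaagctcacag
Cyp2c70 (chr19:40187287-40187406, - strand): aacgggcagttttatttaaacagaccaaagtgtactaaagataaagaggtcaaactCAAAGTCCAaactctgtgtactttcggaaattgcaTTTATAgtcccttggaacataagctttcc

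In the 250 bases before the start, on both strands, CAAAGTCTA stood in Cyp2c29, Cyp2c37 and both annotated starts of Cyp2c39, and in 0.225% of 32851 promoters. It was absent from Cyp2c38 and Cyp2c50. Because this variant was chosen from these promoters, its share beside all promoters is a description. CAAAGTCCA stood in Cyp2c70, a member without a lowered probe, and in 5 relatives (Cyp2c40, Cyp2c65, Cyp2c67, Cyp2c68 and Cyp2c69), and in 0.384% of promoters. The nuclear receptor element AGGTCA, which CAAAGTCCA, CAAAGTCTA and TATAAA do not contain, stood in Cyp2c29, Cyp2c39 start 1 and Cyp2c70, and in 14% of promoters. The direct repeat of AGGTCA with 1 base between the copies was in none of the 14 Cyp2c promoters and in 0.0335% of all. TATAAA stood in the members Cyp2c29, Cyp2c38, Cyp2c55 and Cyp2c70, in the relatives Cyp2c65, Cyp2c66 and Cyp2c67, and in 12.4% of promoters. In a global alignment of those 250 bases, the 14 pairs among Cyp2c29, Cyp2c37, Cyp2c38, Cyp2c39 and Cyp2c50 were 58.4% to 86.0% identical with a median of 62.2%, and Cyp2c55 or Cyp2c70 with these 52.0% to 58.4% with a median of 54.0%. The most alike members were Cyp2c37 and Cyp2c50, at 86.0%. Cyp2c67, not a member, was 55.6% (with Cyp2c39 start 2) to 64.4% (with Cyp2c37) identical with the promoters of the genes with lowered probes. That range overlapped with the range among those genes. Yet Cyp2c67 probe 1, described next, overlapped between cHF+R and cHF livers, with a difference of -0.22 ± 0.18. Whether promoter likeness goes with the lower ratios was not tested.

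The array holds 5 further probes that belong to 4 other Cyp2c genes. Those of Cyp2c65 and Cyp2c66 were well above background on only 3 and 5 of 29 arrays, and 1 of 2 Cyp2c67 probes and the Cyp2c68 probe had too few values to be kept. Cyp2c67 probe 1 had ratios of -0.44, -0.11 and 0.57 in cHF+PC+R livers, -1.01, -0.22 and 0.30 in cHF+PC livers, -0.21, 0.01 and 0.49 in cHF+R livers and -0.20, 0.22 and 0.89 in cHF livers. The groups overlapped, and its difference in cHF+PC against cHF was -0.55 ± 0.17 (adjusted p = 0.0638, limma), of the opposite sign to those of the lowered probes. Without cHF replicate 4, the liver that stands apart, this difference of Cyp2c67 was -0.63 and passed the threshold, as it did without cHF+PC replicate 7.

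Other genes of the pathway, from lists, were read in the same fit, each gene by its brightest probe. In cHF+PC+R against cHF+PC, none of 20 measured targets of CAR and PXR, none of 25 receptors and factors of Cyp2c transcription, none of 13 electron donors and haem genes, none of 17 other fatty acid epoxygenases and hydroxylases and none of 3 epoxide hydrolases changed. In cHF+PC against cHF, 8 of the 20 CAR and PXR targets rose and 0 fell, with a list median of 0.52 beside 0.00 over all probes, where 1.86% of probes rose. Of the same 20, 13 rose and 0 fell in cHF+PC+R against cHF, with a median of 0.64, where 4.55% of all probes rose. With median centring 0 passed in both comparisons, and with scaling between arrays 1 passed in cHF+PC+R and 0 in cHF+PC against cHF. In cHF+R against cHF, where the lowered probes were at the bottom, 1 of 20 rose, Gadd45b, and 1 fell, Cyp3a25 (-0.53, adjusted p = 0.0110, limma), with a median of 0.01 and 1.02% of all probes falling. The call of Cyp3a25 was lost with median centring, with scaling and with the Cy5 channel alone.

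The genes of these lists that are named next were chosen after their values were seen. Cyp3a11, the main inducible drug-metabolising P450 of mouse liver, rose by 0.93 in cHF+PC+R against cHF and by 0.94 in cHF+PC against cHF (adjusted p = 0.000116 and 0.000332, limma). Nr1i2, which encodes PXR, rose by 0.60 ± 0.09 in cHF+PC+R and by 0.46 ± 0.09 in cHF+PC against cHF (adjusted p = 0.000127 and 0.00382, limma). Por rose by 1.07 and 0.78 in the same comparisons (adjusted p = 0.000668 and 0.0202, limma). Pparg, the receptor of rosiglitazone, fell by 0.78 and 0.74 in them (adjusted p = 0.0067 and 0.0190, limma). Of these 4 genes none but Por in cHF+PC+R against cHF kept its call when arrays were centred on their medians, and none did after scaling between arrays, all with the same sign. In cHF+R against cHF, 0 of 25 receptors and factors, 0 of 13 electron donors and haem genes and 1 of 17 other epoxygenases and hydroxylases (Cyp4f16, higher) changed. Among liver zone and sex lists in cHF+R against cHF, 2 of 19 pericentral, 0 of 16 periportal, 2 of 11 male-biased and 0 of 8 female-biased genes changed, the 4 changes being falls, where 2.98% of all probes changed.

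Markers of the cells a liver sample can hold were read beside the members. The sample was labelled liver, and all 10 hepatocyte markers were measured, with a mean log2 ratio per liver of a median of 0.30 in cHF+PC+R, 0.31 in cHF+PC, 0.18 in cHF+R and 0.38 in cHF. In cHF+R against cHF, 2 of the 10 fell, Serpina1a by 0.35 and Apoh by 0.28, where 1.02% of all probes fell. Of 6 adipocyte markers 3 were measured, while Adipoq and Plin1 were well above background on 2 arrays and Lep on 0. All 3 rose in cHF+R against cHF, Cfd by 4.51, Fabp4 by 1.27 and Retn by 0.65, where 2.98% of all probes changed in either direction. Cfd and Fabp4 are also known targets of rosiglitazone. A response of these genes to the drug and more fat cells cannot be told apart here. The call of Fabp4 was lost without cHF+R replicate 1 or cHF+R replicate 3, after arrays were scaled to each other and under median centring, and that of Cfd after such scaling and with an intensity trend, all with the same sign. Their mean log2 ratio per liver had lowest, median and highest values of -1.92, -0.96 and 1.61 in cHF+PC+R, -2.52, -1.83 and -1.28 in cHF+PC, -0.40, 0.54 and 1.88 in cHF+R and -1.93, -1.48 and -0.999 in cHF. The cHF+R livers, the lowest in the lowered probes, thus lay above the cHF livers in these markers, and the part of this in the Cyp2c values was not tested. Of the markers of Kupffer cells (9), stellate cells (10), endothelium (9), cholangiocytes (5) and lymphocytes (6), 0 changed in cHF+PC+R against cHF+PC or in cHF+R against cHF. Of 4 red cell markers, Alas2 fell in cHF+PC+R against cHF+PC by 0.41 ± 0.09 (adjusted p = 0.0454, limma), a call lost in 19 of the fits without 1 array, and in cHF+R against cHF by 0.42.

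**Figure D4:**
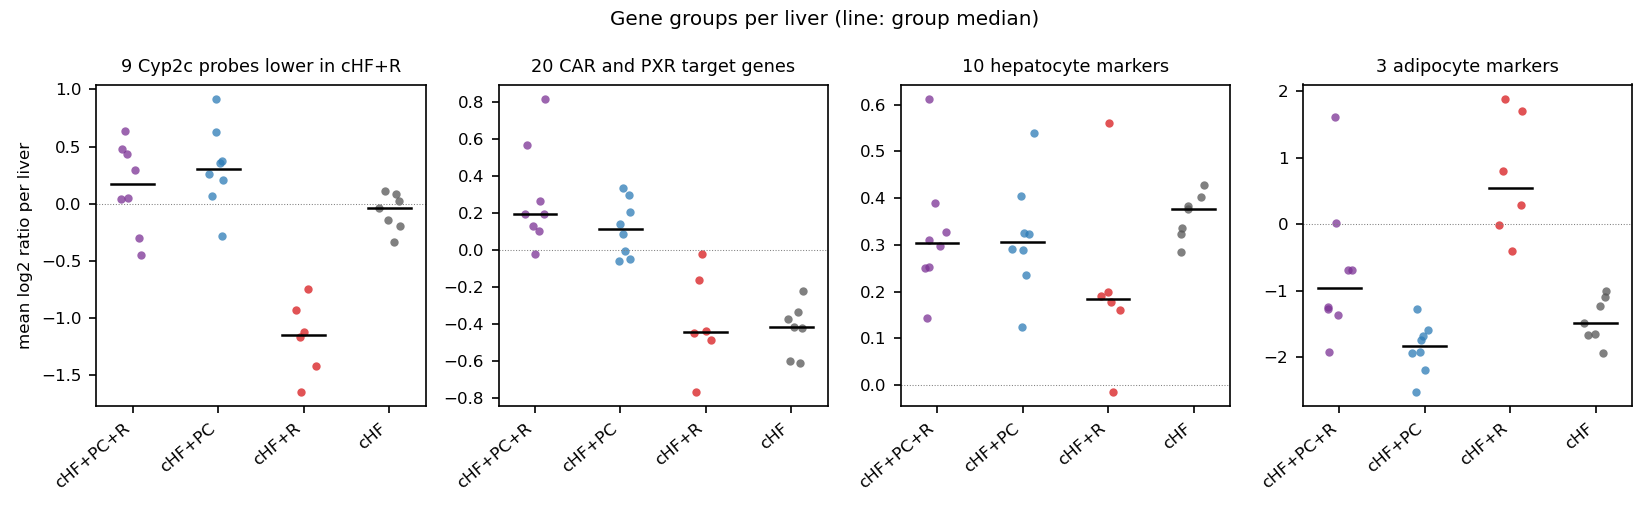
Mean log2 ratio per liver (vertical axes) of the 9 lowered Cyp2c probes, 20 CAR and PXR targets, 10 hepatocyte markers and 3 adipocyte markers, with the groups cHF+PC+R, cHF+PC, cHF+R and cHF from left to right. Points are livers and lines are group medians; for the lowered probes these are 0.18, 0.31, -1.14 and -0.04, for the CAR and PXR targets 0.19, 0.11, -0.44 and -0.42.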

How the data were processed

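Per the labels' protocols, RNA of each liver was amplified with Cy5 and hybridised against a Cy3 pool of all samples, with no dyes swapped, and 1 cHF and 1 cHF+R array had been excluded by the authors. Per the file headers, the deposited scanner files hold linear spot intensity from Agilent Feature Extraction 10.5.1.1 before any normalization across arrays. The authors also deposited log2 values with the normalization not given in the sources used, and it served as an alternative.

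Mean intensities were background-corrected with normexp (offset 50) and loess-normalized within arrays in limma 3.58.1 (R 4.3.3, jsonlite 2.0.0, data.table version 1.17.8). Control spots and spots marked as outliers were left out and spots of a probe averaged. Probes needed a Cy5 signal well above background on 6 or more arrays and values on 20 or more. One model of 4 group means was fitted over 29 arrays with lmFit and eBayes, two-sided, with Benjamini-Hochberg adjustment over 23932 probes at 0.05. Words such as rose are used of what passed. Errors are standard errors of the fit unless marked SD, and precision is limited by the number of arrays. The fit was tested on simulated data.

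Probe names came from RefSeq GRCm38.p6 by accession (26412), symbol (3854) or synonym (735), else from the file (8428), and promoters from the same annotation were aligned with Biopython 1.88. Figures were drawn with matplotlib 3.10.9. The members and all lists were chosen with earlier results of these data known. Named genes are all Cyp2c probes, list genes with the smallest adjusted p past the threshold for cHF+PC+R against cHF+PC (at most 4 per list), the 5 genes most and 3 least like the members, and the drug targets Cfd, Cidec and Fabp4. Other genes named with a change were chosen after their values were seen. Among these, Gadd45b, Cyp3a25, Cyp4f16, Serpina1a, Apoh and Retn passed in cHF+R against cHF. No slide, of 8, held more than 1 array of any group. Alternatives changed the background, normalization, filter, probe choice, block, samples and weights.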

Additional observations from a re-analysis of the deposited data

Results flagged for a closer look

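One value of a member stood far from its group. Cyp2c38 probe 2 had a log2 ratio of 1.26 in cHF replicate 4, where the nearest of the other 6 cHF livers had 0.18. The gap was 0.673 of the group's range, past Dixon's 95% value for 7 samples. One of 52 probe and group pairs was marked, and chance marks about 1 in 20. The same array had 80.8% of its spots well above background, against at most 62.5% on the others.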

How the results depend on the processing

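In cHF+PC+R against cHF+PC, 0 member probes passed under every alternative run. Signs turned there for Cyp2c54 probe 2 with median centring (0.0252), for Cyp2c44 (-0.21) and Cyp2c70 (-0.36) with scaling between arrays and for Cyp2c70 with the deposited table (-0.0164). With 1 array left out, Cyp2c54 probe 2 ran from -0.17 to 0.0165 (without cHF+PC replicate 7) and Cyp2c44 from -0.00372 (without cHF+PC replicate 1) to 0.23. Cyp2c50 turned to -0.0342 with Cy5 quantiles alone in cHF+PC+R against cHF. The cause was not tested.

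Member counts in cHF+PC against cHF were 1 with the deposited table (Cyp2c44), 1 with the replicate block, 1 with only the compared groups (both Cyp2c38 probe 1) and 2 with array weights (also Cyp2c39), against 0, and 0 to 1 with an array left out. Cyp2c38 probe 1 passed without cHF+PC replicate 2 or cHF+PC+R replicate 7, and Cyp2c44 without cHF+PC replicate 1. The count for cHF+PC+R against cHF was 2 with the deposited table (also Cyp2c44), against 1, and 1 to 2 with an array left out, Cyp2c44 being added without cHF+PC replicate 1 or cHF+PC+R replicate 6. Cyp2c55 stayed called there, at 0.77 to 0.96 with an array left out.

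Of all probes in cHF+PC+R against cHF+PC, 27 passed, against 98 with no background subtraction, 75 with processed signals, 2 with median centring, 10 with scaling, 44 with Cy5 quantiles, 68 with the deposited table, 10 with only the compared groups and 150 with array weights (57 lower, 93 higher, against 4 and 23), and 7 to 58 with an array left out. In cHF+PC against cHF 918 passed, against 1450, 12 with median centring, 347 with scaling, 467 with Cy5 quantiles and 1405 with array weights (575 lower, 830 higher, against 473 and 445), and 511 to 1036 with an array left out. For cHF+PC+R against cHF 2162 passed, against 109 with median centring, 189 with scaling and 943 with Cy5 quantiles, and 1560 to 2350 with an array left out; the deposited table gave 1642 lower and 718 higher, against 1074 and 1088.

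Same-numbered livers lay on the same slide in 8 of 8 pairs of cHF+PC+R and cHF+PC and in 3 of 7 pairs of the other comparisons. Their deviations correlated by -0.12 to 0.38 in the first, with 4 of 8 pairs over 0.1, so the numbers were not taken as pairs in the model. With the replicate block, which is the slide in the first comparison, the counts were 21, 1043 and 2286. In cHF+R against cHF the 9 lowered probes stayed negative. They were at -0.84 to -1.44 with slide as a block and -0.88 to -1.45 with the deposited table. The values were -0.53 to -1.09 with median centring (where the median of all probes was 0.14) and -1.24 to -1.95 with scaling. Errors were wider in the latter settings: Cyp2c29 had -0.53 ± 0.31 with median centring and -1.24 ± 0.47 with scaling, against -0.84 ± 0.17 in the model used here. Alternatives for the genes in the text outside the members were added after seeing the data.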
